A study of Mus musculus with 33 samples.

Results

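Expression of 10 genes of the bone morphogenetic protein (BMP) pathway was followed through differentiation of mouse embryonic stem cells: the ligands Bmp2, Bmp4 and Bmp7, the secreted antagonist Nog, the ID genes Id1, Id2, Id3 and Id4, and the inhibitory SMADs Smad6 and Smad7. The members were chosen by name and were found in all 33 gene count files, as 10 of 37991 genes listed. All cells were derived from the E14TG2a line, a mouse embryonic stem cell line that had tested positive for Mycoplasma and was decontaminated before use. Neil1, Neil2 and Apex1 lines were made with CRISPR/Cas9, with puromycin selection, and the Control clones came from mock transfections that received the nuclease without a guide RNA. Neil1 and Neil2 are DNA glycosylases and Apex1 is an endonuclease, all of base excision repair. The Control group held clones #1, #4 and #7, the Neil1 group clones #7, #9 and #11, and the Neil2 group clones #1, #11 and #14, named here as replicates 1, 2 and 3. The libraries labelled Apex1 were technical duplicates of 1 clone, #46, so their spread is technical. Each genotype was measured as undifferentiated cells in medium with serum and LIF (mESCs), as embryoid bodies harvested on day 8 (EBs), and as embryoid bodies given 5 µM retinoic acid (RA) from day 4 and harvested on day 8 (EBs + RA).

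BMP ligands bind serine/threonine kinase receptors, which phosphorylate SMAD1, SMAD5 and SMAD9, and these enter the nucleus with SMAD4 to switch on target genes. The ID genes are direct targets and encode helix-loop-helix proteins without a DNA-binding region, which hold back differentiation factors of the bHLH family. Smad6, Smad7 and Nog are also targets, and their products damp the pathway: NOG binds ligands outside the cell, and SMAD6 and SMAD7 act on the receptors and SMADs inside. In serum-grown mouse embryonic stem cells BMP signalling with LIF is known to sustain self-renewal, and in embryoid bodies BMP4 is known to drive mesoderm.

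The depth was 21523742 to 48350904 counts on genes per library, with a median of 26720028, and the members held 6 to 14701 raw counts. A count over the whole gene does not check the planned deletions, since these leave most exon bases in place. The authors checked the lines by genotyping PCR, with western blots for NEIL1 and APEX1 and RT-qPCR for Neil2. Apex1 itself was at 56.5 to 86.2 CPM in the libraries labelled Apex1 and at 4.44 to 21.98 CPM elsewhere, so its RNA was not lower there, and those libraries are named by their label throughout. Neil1 RNA in Neil1 cells lay below every Control library only in EBs + RA (2.18 to 4.34 against 6.05 to 8.12 CPM), and reached 31.55 CPM in mESCs #7. Neil2 RNA in Neil2 cells overlapped Control in mESCs and EBs and lay above it in EBs + RA (4.86 to 5.85 against 3.40 to 4.51 CPM). The mESC library of Neil1 #11 stood apart: of the genes that reached 10 counts in every other mESC library, 345 of 511 on the X chromosome and 7 of 7 on the Y chromosome were at 0 in it, but no member lies on these chromosomes. Pluripotency markers (Pou5f1, Nanog, Zfp42, Klf4 and Esrrb) summed to 2750 to 3559 CPM over all mESC libraries, 1274 to 2314 CPM over all EB libraries and 69.8 to 603.5 CPM over all EB + RA libraries. In bulk samples such as these, fewer cells of a type and less RNA per cell cannot be told apart.

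In NCBIM37 (mm9), the build of the count files, Bmp2 (ENSMUSG00000027358) lies at chr2:133377895-133388621, Bmp4 (ENSMUSG00000021835) at chr14:47003195-47010344, and Bmp7 (ENSMUSG00000008999) at chr2:172693513-172765822. Nog (ENSMUSG00000048616) lies at chr11:89161952-89163873. Id1 (ENSMUSG00000042745) lies at chr2:152561987-152563146, Id2 (ENSMUSG00000020644) at chr12:25778666-25780957, Id3 (ENSMUSG00000007872) at chr4:135699412-135701670 and Id4 (ENSMUSG00000021379) at chr13:48356796-48359405. Smad6 (ENSMUSG00000036867) lies at chr9:63800953-63869866 and the identifier of Smad7 is ENSMUSG00000025880. Reads were counted over all exons of a gene without regard to strand, so Bmp4 cannot be told apart from Gm15217 and Gm15222, and Id4 from A330033J07Rik, where these genes overlap on the opposite strand.

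The promoters of 5 members were found in the RefSeq table for GRCm38.p6, namely Bmp4, Id2, Id3, Id4 and Smad6, each as 250 bases before and 50 after the start. Those of Id3 and Smad6, 2 targets that were lower in Neil1 and Neil2 EBs, are shown beside that of Id2, a target that was not called there, to let their SMAD-type motifs be compared. Capitals mark the motifs GGCGCC and GGAGCC, known BMP SMAD sites, and CAGAC and GTCTAGAC, known SMAD binding elements, each searched on both strands (the reverse complements of GGAGCC and CAGAC read GGCTCC and GTCTG).
Id3 promoter, chr4:136143572-136143871, plus strand: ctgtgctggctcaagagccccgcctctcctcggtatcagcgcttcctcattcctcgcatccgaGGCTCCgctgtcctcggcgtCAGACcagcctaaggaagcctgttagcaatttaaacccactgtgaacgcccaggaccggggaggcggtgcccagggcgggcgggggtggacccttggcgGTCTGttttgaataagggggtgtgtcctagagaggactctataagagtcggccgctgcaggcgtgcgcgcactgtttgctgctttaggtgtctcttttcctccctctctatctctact
Smad6 promoter, chr9:64022010-64022309, minus strand: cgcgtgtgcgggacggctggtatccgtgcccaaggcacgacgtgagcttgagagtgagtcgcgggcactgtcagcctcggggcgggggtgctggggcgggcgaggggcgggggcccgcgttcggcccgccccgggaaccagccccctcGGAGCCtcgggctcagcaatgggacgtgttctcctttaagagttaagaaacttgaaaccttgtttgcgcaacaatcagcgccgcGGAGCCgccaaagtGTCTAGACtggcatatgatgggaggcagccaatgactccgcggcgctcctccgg
Id2 promoter, chr12:25096043-25096342, minus strand: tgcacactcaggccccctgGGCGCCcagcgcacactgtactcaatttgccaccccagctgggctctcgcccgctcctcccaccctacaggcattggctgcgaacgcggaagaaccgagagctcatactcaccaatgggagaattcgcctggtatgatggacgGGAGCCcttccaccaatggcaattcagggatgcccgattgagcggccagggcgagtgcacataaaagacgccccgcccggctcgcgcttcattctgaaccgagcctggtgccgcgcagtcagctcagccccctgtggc
The Id3 window held CAGAC at 2 places and GGAGCC at 1 place. That of Smad6 held GGAGCC at 2 places and GTCTAGAC at 1 place, which spanned the start from position -4 to 3. In Id2, GGAGCC and GGCGCC were each found at 1 place. Of all 32851 promoters in the table, 30.8% held GGAGCC, 49.6% CAGAC, 11.9% GGCGCC and 0.213% GTCTAGAC. Id4, which moved otherwise than Id3 in EBs, also held 1 GGAGCC and 1 GGCGCC. The Bmp4 window held 1 GGAGCC and 1 E-box CACGTG, the latter found in 7.15% of promoters. The retinoic acid receptor motif AGGTCA, found in 16.3% of promoters, was in none of the 5 windows. These matches are a description of letters and not of binding.

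Control cells set the baseline for the order of the members. Per kilobase of exon, Id1 was the highest member in Control mESCs at a mean of 48.6 CPM per kb, followed by Id2 at 43.8, Id3 at 28.2 and Smad7 at 15.8. The ligands were lower, with Bmp4 at 4.80, Bmp7 at 2.08 and Bmp2 at 0.121 CPM per kb. Smad6 was at 3.73, Id4 at 1.31 and Nog at 0.412 CPM per kb. Neighbours in this order whose means ± SD overlapped were Id1 and Id2, Bmp4 and Smad6, and Bmp7 and Id4. Such overlap is a description over clones. The order of 2 genes measured in the same libraries was not tested. In Control EBs Id1 led at 91.8 CPM per kb, ahead of Id3 at 62.6 and Id2 at 44.7, with Bmp4 at 28.3 and Smad7 at 22.2. Id1 and Id3, Bmp4 and Smad7, Smad6 (8.31) and Bmp2 (7.94), and Id4 (3.05) and Nog (2.94) were within their SDs of each other. In Control EBs + RA the order was Id3 at 247.5, Id2 at 203.0 and Id1 at 102.1 CPM per kb, with Smad7 at 11.1, Bmp7 at 9.48, Smad6 at 6.45, Id4 at 5.04, Bmp4 at 3.15, Nog at 1.31 and Bmp2 at 1.23. Here Id3 and Id2, Smad7 and Bmp7, Bmp7 and Smad6, Smad6 and Id4, and Nog and Bmp2 were within their SDs.

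**Figure D1:**
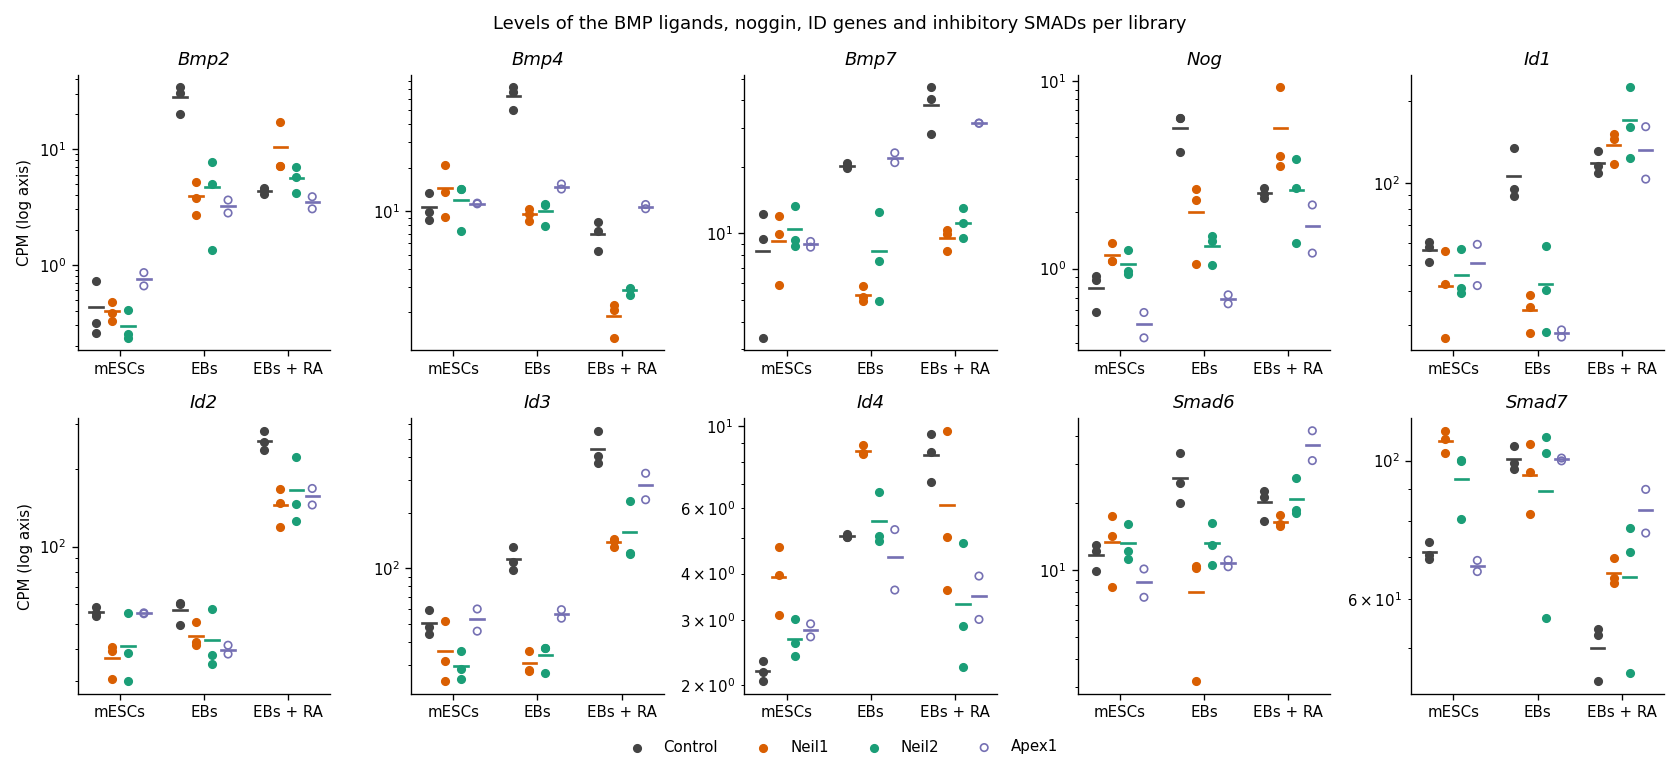
CPM (log axis) of each member in each library at the 3 stages, by genotype, with filled points for clones, open points for the Apex1 duplicates and bars for group means. Bmp4 stood at 49.7 to 71.8 CPM in Control EBs and at 7.84 to 15.4 CPM in all mutant EBs, whereas Smad7 overlapped there.

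The question of the stage comparison in Control cells was how the pathway changes as cells leave the stem cell state. From mESCs to EBs, 8 of 10 members rose and 0 fell. Over all 15799 genes tested, 18.5% were called higher and 20.2% lower, which required an FDR under 0.1 together with a log2 fold change beyond 0.5 in size. FDR is the Benjamini-Hochberg adjusted p of edgeR's quasi-likelihood test over all genes tested, and "rose", "fell" and "called" refer to both limits throughout. The median log2 fold change was 1.17 over the members and -0.02 over all genes tested. Bmp2 and Bmp4 encode closely related ligands that bind the same receptors. Bmp2 was at 0.256, 0.719 and 0.314 CPM in Control mESCs #1, #4 and #7, from 7 to 19 raw counts. It was at 30.4, 34.1 and 20.2 CPM in the EBs of the same clones. The clones did not overlap between the stages, and the mean level was 65.7-fold higher (log2 fold change 6.01 ± 0.37 SE, FDR 7.21e-06). Bmp4 was at 9.92, 8.67 and 13.4 CPM in mESCs and at 67.0, 71.8 and 49.7 CPM in EBs. It thus rose in every clone (2.54 ± 0.20, FDR 2.74e-05). Bmp7 was at 12.2, 9.46 and 3.38 CPM in mESCs and at 19.8, 20.8 and 20.1 CPM in EBs (1.26 ± 0.36, FDR 0.0218). The stages did not overlap, but its mESC clones spread widely and its call was lost without clone #4 (1.34, FDR 0.107).

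Targets and inhibitors rose with the ligands, Nog by the largest amount. Nog was at 0.916, 0.871 and 0.590 CPM in Control mESCs and at 4.20, 6.38 and 6.34 CPM in EBs (log2 fold change 2.80 ± 0.31 SE, FDR 0.000153). Smad6 went from 12.96, 12.2 and 9.90 CPM to 24.6, 33.6 and 20.0 CPM (1.14 ± 0.21, FDR 0.0024). In both genes all EB values lay above all mESC values. Id1 went from 50.9, 57.9 and 60.4 CPM to 89.6, 134.8 and 95.3 CPM (0.90 ± 0.16, FDR 0.00256). Id3 went from 44.2, 48.0 and 59.2 CPM to 108.2, 130.1 and 98.1 CPM (1.13 ± 0.15, FDR 0.000514), again without overlap. Id4 went from 2.16, 2.04 and 2.32 CPM to 5.02, 5.02 and 5.12 CPM (1.20 ± 0.22, FDR 0.00265). Id2 and Smad7 did not pass both limits. The Id2 difference was 0.01, with a 95% interval from -0.25 to 0.26, and that of Smad7 was 0.48 at FDR 0.00545, under the fold limit.

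With RA the ligands parted in Control cells: Bmp2 and Bmp4 fell and Bmp7 rose. Against EBs, 4 members were higher and 4 lower, where 23.3% of 15919 genes were called higher and 20.7% lower. The median log2 fold change was -0.11 over the members and 0.01 over all genes. Bmp2 was at 4.59, 4.07 and 4.41 CPM in Control EBs + RA, below every EB value given above (-2.71 ± 0.21 SE, FDR 1.99e-05). Bmp4 was at 8.36, 7.35 and 5.30 CPM (-3.18 ± 0.20, FDR 8.14e-06). Bmp7, which is known in kidney and eye development, was at 45.7, 40.6 and 28.1 CPM (0.90 ± 0.17, FDR 0.00223). Nog was at 2.38, 2.49 and 2.68 CPM and Smad7 at 44.3, 53.6 and 52.5 CPM, and both fell, by 1.17 (FDR 0.00343) and by 1.01 (FDR 0.000104) on the log2 scale. Smad6 was at 16.7, 21.3 and 22.8 CPM, a difference of -0.37 (FDR 0.162).

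The ID genes did not move as a block with RA. Id3 reached 404.7, 554.1 and 370.9 CPM in Control EBs + RA (log2 fold change 1.97 ± 0.17 SE, FDR 3.56e-05), and Id2 reached 255.3, 281.8 and 236.4 CPM (2.17 ± 0.11, FDR 2.78e-06). In both, the lowest EB + RA library lay far above the highest EB library. Id1 was at 108.4, 131.2 and 115.8 CPM, within the range of the EBs (0.14, FDR 0.474). Id4 was at 9.51, 8.52 and 7.09 CPM (0.72 ± 0.18, FDR 0.0105), and was called in 1 of the 3 fits that left out a clone. Over the same step, Bmp4 and Id3 thus moved in opposite directions.

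In EBs the ligands, Nog, Id1, Id3 and Smad6 were lower in Neil1 and Neil2 cells than in Control cells, and Id2 and Smad7 were not called. This comparison asked whether loss of either glycosylase alters the course of differentiation. In Neil1 EBs 7 members fell and 1 rose, where 13.1% of 15479 genes were called lower and 10.4% higher. In Neil2 EBs 7 members fell and 0 rose, where 7.69% of 15575 genes were called lower and 8.65% higher. The median log2 fold change over the members was -1.69 in Neil1 and -1.29 in Neil2 EBs, beside -0.0006 and 0.02 over all genes tested. Both comparisons, and that of the libraries labelled Apex1, share the 3 Control libraries.

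Among the ligands, Bmp4 was at 8.56, 10.4 and 9.61 CPM in Neil1 EBs and at 7.84, 11.3 and 11.1 CPM in Neil2 EBs, against 67.0, 71.8 and 49.7 CPM in Control EBs. Every mutant library lay below the lowest Control library and within the 7.30 to 20.8 CPM of the Neil1 and Neil2 mESC libraries. The mean ± SD was 9.51 ± 0.91 CPM in Neil1, 10.1 ± 1.94 CPM in Neil2 and 62.9 ± 11.6 CPM in Control EBs (n = 3 clones each). The log2 fold change was -2.72 ± 0.15 SE in Neil1 (FDR 1.44e-06) and -2.63 ± 0.20 in Neil2 (FDR 0.00021). Bmp2 was at 2.70, 3.78 and 5.18 CPM in Neil1 and at 7.75, 1.34 and 5.00 CPM in Neil2 EBs, against 20.2 to 34.1 CPM in Control. The groups did not overlap, although the Neil2 clones spread widely (-2.84 ± 0.26, FDR 7.23e-05 in Neil1; -2.56 ± 0.50, FDR 0.0127 in Neil2). Bmp7 was at 4.95, 5.77 and 5.14 CPM in Neil1 and at 12.5, 4.94 and 7.52 CPM in Neil2 EBs, against 19.8 to 20.8 CPM in Control. Again no mutant library reached the Control range (-1.93 ± 0.14, FDR 7.53e-06 in Neil1; -1.26 ± 0.30, FDR 0.0273 in Neil2).

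Nog, which binds these ligands, was at 1.05, 2.32 and 2.65 CPM in Neil1 EBs and at 1.40, 1.05 and 1.49 CPM in Neil2 EBs, against 4.20, 6.38 and 6.34 CPM in Control EBs. All mutant values lay below all Control values (log2 fold change -1.46 ± 0.32 SE, FDR 0.00665 in Neil1; -2.08 ± 0.28, FDR 0.0026 in Neil2). Smad6, the inhibitor known to act mainly on BMP receptors, was at 10.3, 10.4 and 3.17 CPM in Neil1 and at 10.5, 12.9 and 16.4 CPM in Neil2 EBs, against 24.6, 33.6 and 20.0 CPM in Control. The lowest value by far was that of Neil1 #11. The changes were -1.72 ± 0.44 (FDR 0.0299) and -0.96 ± 0.23 (FDR 0.0288). Smad7, which also acts on TGF-beta receptors, was at 95.9, 106.4 and 82.0 CPM in Neil1 and at 56.0, 102.7 and 109.0 CPM in Neil2 EBs. These ranges overlapped the 96.8 to 105.4 CPM of Control EBs, and the intervals of the log2 difference ran from -0.31 to 0.14 and from -0.67 to 0.35.

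Among the ID genes, Id3 was at 27.9, 35.7 and 28.1 CPM in Neil1 and at 37.1, 27.2 and 36.9 CPM in Neil2 EBs, against 108.2, 130.1 and 98.1 CPM in Control. The groups lay far apart, with mean levels 3.67-fold lower in Neil1 and 3.32-fold lower in Neil2 (log2 fold change -1.87 ± 0.13 SE, FDR 7.77e-06; -1.72 ± 0.16, FDR 0.000603). Id1 was at 28.1, 38.6 and 34.9 CPM in Neil1 and at 58.3, 28.3 and 40.4 CPM in Neil2 EBs, against 89.6 to 134.8 CPM in Control. It was lower in every mutant clone, least so in Neil2 #1 (-1.65 ± 0.17, FDR 0.00018; -1.31 ± 0.26, FDR 0.0135). Id2 was at 42.7, 50.8 and 41.6 CPM and at 57.1, 34.9 and 38.0 CPM, against 49.8, 59.9 and 60.5 CPM. Here the ranges overlapped, and neither difference passed both limits (-0.33, FDR 0.0535; -0.37, FDR 0.265). Id4 was at 8.91, 8.46 and 8.42 CPM in Neil1 EBs, above the 5.02 to 5.12 CPM of all Control clones (0.77 ± 0.16, FDR 0.00522). In Neil2 EBs it was at 4.91, 6.65 and 5.05 CPM (0.15, FDR 0.726).

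Leaving out any 1 library ended no call in Neil1 EBs, but there the Smad6 call was lost with no filter on low counts (-1.73, FDR 0.121). In Neil2 EBs, the Bmp2 difference was -3.17 without Neil2 #1, the Bmp7 call was lost without Neil2 #14 (-1.18, FDR 0.120), the Smad6 call was lost without Control #4 (-0.75, FDR 0.125), and Id2 was called lower without Neil2 #1 (-0.64, FDR 0.00466).

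**Figure D2:**
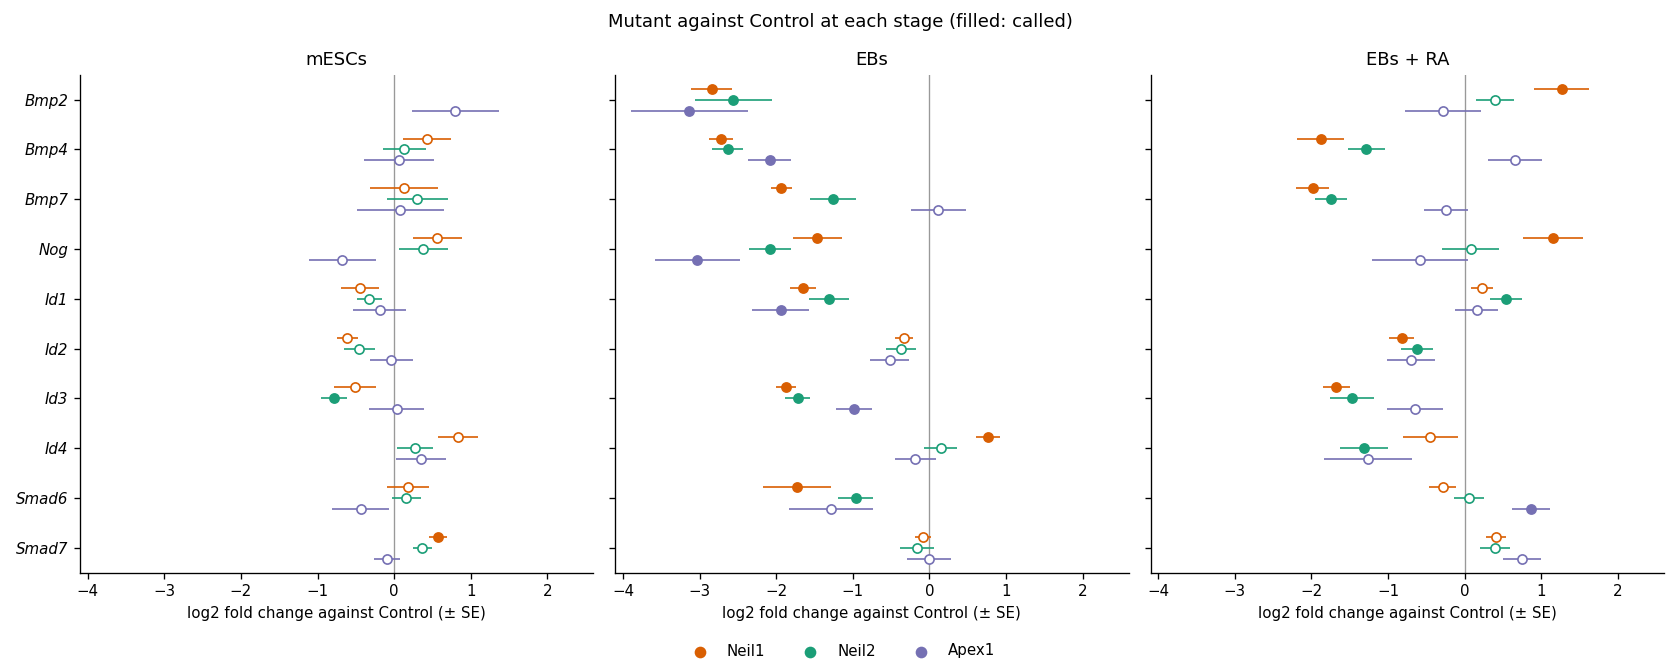
Log2 fold change of each member against Control (points, with bars for ± SE) in mESCs, EBs and EBs + RA, filled where called. In EBs the ligands, Nog, Id1, Id3 and Smad6 lay left of 0 in Neil1 and Neil2, and in EBs + RA Id1 lay right of 0 while Id3 stayed at -1.67 and -1.47.

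Mesoderm markers moved with these levels. The sum of T, Mesp1, Hand1, Hand2, Tbx5, Myl7 and Tnnt2 was 178.8 to 220.7 CPM in Control EBs, 14.3 to 21.8 CPM in Neil1 EBs and 13.1 to 18.9 CPM in Neil2 EBs, and none of the 7 markers was at 0 in every library of a group. Of 6 markers tested, 5 fell in Neil1 and 4 in Neil2 EBs. T (69.5 to 117.0 CPM) and Hand1 (89.8 to 110.0 CPM) made up most of the sum in Control EBs, and Myl7 overlapped Control in both mutants. Trophoblast markers (Cdx2, Elf5, Prl7d1 and Krt7) summed to 95.5 to 139.2 CPM in Control EBs, 23.2 to 66.5 CPM in Neil1 EBs and 23.3 to 36.4 CPM in Neil2 EBs. Of 4 tested, 1 was lower and 1 higher in Neil1 and 1 was lower in Neil2. Cdx2, which made up most of the drop in the sum, went from 48.9 to 82.6 CPM in Control to 1.26 to 1.70 CPM in Neil1 and 1.21 to 2.05 CPM in Neil2. Elf5 went the other way, from 0.779 to 0.995 CPM in Control to 1.45 to 1.91 CPM in Neil1 and 1.18 to 2.03 CPM in Neil2. Krt7 and Prl7d1 overlapped Control in both. Roof plate markers (Lmx1a, Gdf7, Wnt3a and Msx1) summed to 68.8 to 127.4, 6.15 to 8.25 and 7.12 to 8.93 CPM, with Gdf7 at 0 in Control EBs. Msx1 alone, which is also in the pathway list below, made up most of the Control sum. Pluripotency markers were higher, with a sum of 1274 to 1335 CPM in Control, 1989 to 2250 CPM in Neil1 and 1445 to 2314 CPM in Neil2 EBs, and 5 of 5 and 4 of 5 of them were called higher. Visceral endoderm markers (Afp, Ttr, Apoa1, Foxa2, Sox17 and Amn) overlapped, at 157.7 to 365.7, 259.7 to 459.1 and 100.0 to 447.6 CPM. Endothelial markers (Pecam1, Cdh5, Kdr, Tek, Tie1 and Eng) summed to 106.1 to 129.9, 139.3 to 200.1 and 111.6 to 166.3 CPM. This sum joins opposite members, with 3 of 6 higher and 2 lower in Neil1 and 3 higher and 1 lower in Neil2. Kdr, which also marks early mesoderm, was at 30.8 to 42.7 CPM in Control, 1.19 to 1.67 CPM in Neil1 and 1.04 to 1.12 CPM in Neil2 EBs, whereas Pecam1 was at 38.3 to 41.9, 79.1 to 84.4 and 60.0 to 90.7 CPM. In mESC libraries Pecam1 was at 59.7 to 134.3 CPM, Tek at 13.1 to 51.4 CPM and Eng at 47.9 to 117.3 CPM. Each lay above every Control EB library, so these markers are not particular to endothelium here. The part of these cell types in the member differences was not tested.

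**Figure D3:**
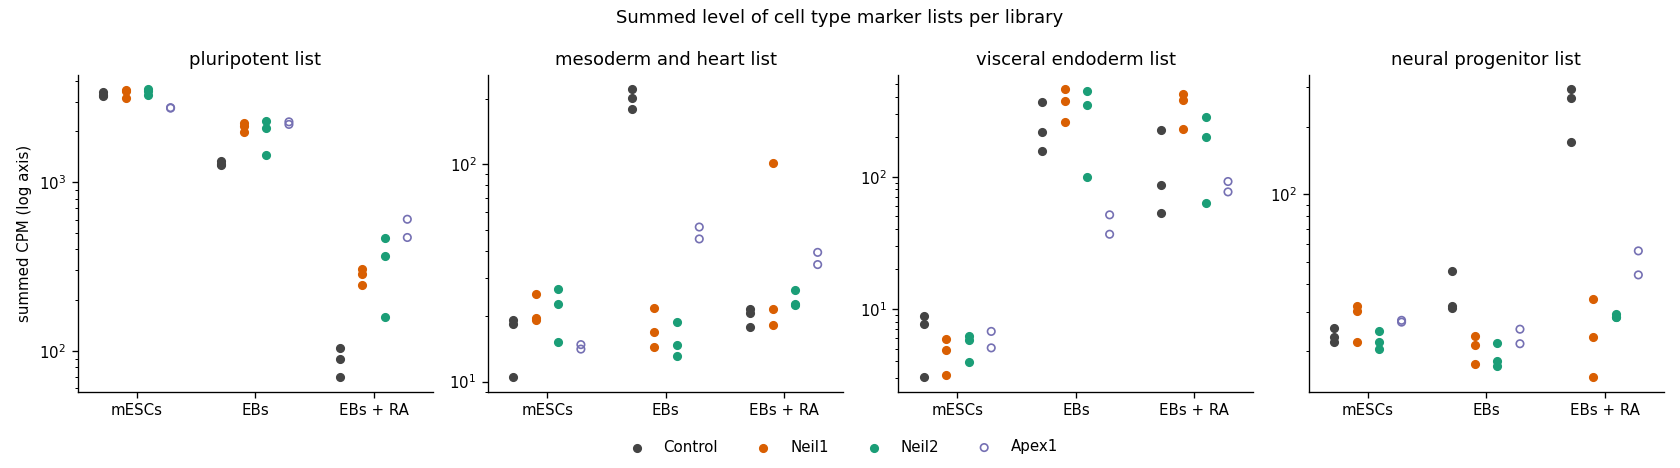
Summed CPM (log axis) of 4 marker lists in each library at the 3 stages, by genotype, with open points for the Apex1 duplicates. The mesoderm and heart list stood at 178.8 to 220.7 CPM in Control EBs and at most at 51.3 CPM in the mutant EBs.

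In the libraries labelled Apex1, Bmp2, Bmp4, Nog, Id1 and Id3 were lower than Control in EBs, which is 5 members lower and 0 higher, where 4.77% of 16864 genes were called lower and 4.12% higher. Their duplicates entered the fit as 1 summed sample, which is assumed to vary like the clones of the other groups. Bmp4 was at 14.2 and 15.4 CPM and Bmp2 at 2.80 and 3.62 CPM, both below every Control library (log2 fold change -2.09 ± 0.28 SE, FDR 0.00425; -3.13 ± 0.77, FDR 0.0445). Nog was at 0.649 and 0.724 CPM, the lowest EB values of any genotype (-3.03 ± 0.56, FDR 0.0130), and Id1 was at 28.7 and 27.0 CPM (-1.94 ± 0.37, FDR 0.0157). Id3 lay at 53.6 and 59.6 CPM, between Control and the other mutants (-0.99 ± 0.23, FDR 0.0365), and its call was lost without Control #4 (-0.87, FDR 0.104). In contrast to the Neil1 and Neil2 EBs, Bmp7 was at 23.1 and 20.9 CPM, above each Control library, with an interval of the log2 difference from -0.66 to 0.89. Smad6 at 11.1 and 10.4 CPM and Id2 at 41.4 and 38.3 CPM lay below every Control library but were not called (-1.28 ± 0.55, FDR 0.212; -0.51 ± 0.25, FDR 0.281), and DESeq2 called Smad6 (FDR 0.0764). Id4 was at 3.61 and 5.26 CPM (-0.18, FDR 0.769) and Smad7 at 99.9 and 100.9 CPM (-0.0043, FDR 0.995). The Bmp2 call was lost with no filter on low counts (FDR 0.184). Over the members the median log2 fold change was -1.14 and over all genes -0.0089. The mesoderm markers summed to 45.3 and 51.3 CPM, and the visceral endoderm markers to 36.7 and 51.4 CPM, below each Control library. In each of these lists 2 of 6 markers tested were called lower and 0 higher. In the mesoderm list, T was at 27.7 and 33.9 CPM and Hand1 at 10.9 and 10.25 CPM, both below every Control library. Myl7 was at 4.30 and 3.28 CPM, on either side of Control.

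After RA the picture split: Bmp4, Bmp7, Id2 and Id3 were lower than Control in Neil1 and Neil2 cells, while Id1 and Smad6 were not called lower. In Neil1 EBs + RA 4 members were lower and 2 higher, where 19.9% of 16019 genes were called lower and 21.2% higher. In Neil2 EBs + RA 5 were lower and 1 higher, where 16.6% of 16055 genes were called lower and 18.3% higher. The median log2 fold change of the members was -0.37 in Neil1 and -0.28 in Neil2, beside 0.0015 and 0.0047 over all genes. Bmp4 was at 2.08, 2.25 and 1.33 CPM in Neil1 and at 2.63, 2.97 and 2.92 CPM in Neil2, against 8.36, 7.35 and 5.30 CPM in Control. Bmp7 was at 9.94, 10.4 and 8.32 CPM in Neil1 and at 9.49, 11.1 and 12.99 CPM in Neil2, against 45.7, 40.6 and 28.1 CPM in Control. Neither ligand overlapped between mutants and Control. The log2 fold change of Bmp4 was -1.88 ± 0.31 SE (FDR 0.00301) and -1.28 ± 0.24 (FDR 0.00601), and that of Bmp7 was -1.99 ± 0.22 (FDR 0.000516) and -1.75 ± 0.21 (FDR 0.0010).

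Bmp2 and Nog went the other way in Neil1 EBs + RA. Bmp2 was at 7.12, 7.18 and 17.1 CPM, against 4.59, 4.07 and 4.41 CPM in Control (log2 fold change 1.27 ± 0.36 SE, FDR 0.0272). Nog was at 3.53, 4.00 and 9.25 CPM, against 2.38, 2.49 and 2.68 CPM in Control (1.15 ± 0.39, FDR 0.0483). All 3 Neil1 clones lay above Control in both genes, with #11 well above the other two. Without #11 the Bmp2 difference was 0.72 and still called, and that of Nog was 0.59 (FDR 0.103). The Nog call was also lost without Control #1 (1.11, FDR 0.140) or #4 (1.13, FDR 0.127). The same clone held 91.1 CPM of Hand1, against 8.11 and 11.8 CPM in the other Neil1 clones. The rest of the mesoderm and heart list did not move together in it. T, Mesp1, Hand2 and Tbx5 were at 0.121, 0, 0.444 and 0.444 CPM, with Hand2 and Tbx5 below every Control library. Myl7 at 6.34 CPM and Tnnt2 at 2.30 CPM lay above every Control library. This clone was also the highest library in the trophoblast list genes Krt7 (552.0 CPM), Prl7d1 (54.3 CPM) and Elf5 (28.5 CPM). The same held for Cdh5 (106.9 CPM) and Foxa2 (77.9 CPM). Visceral endoderm markers summed to 230.5 to 421.7 CPM in Neil1 EBs + RA, against 53.3 to 227.5 CPM in Control, with 4 of 6 called higher, and Sox17 was at 22.8 to 58.5 CPM, against 10.7 to 14.3 CPM. The part of these cell types in the Bmp2 and Nog values was not tested. In Neil2 EBs + RA Bmp2 was at 5.74, 4.18 and 7.05 CPM and Nog at 3.83, 1.37 and 2.67 CPM, and neither was called (FDR 0.251 and 0.891).

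Id3 was lower after RA as well. It was at 140.4, 143.7 and 130.0 CPM in Neil1 and at 231.7, 121.2 and 119.5 CPM in Neil2 EBs + RA, against 404.7, 554.1 and 370.9 CPM in Control. No mutant library reached the lowest Control library (log2 fold change -1.67 ± 0.17 SE, FDR 0.000445; -1.47 ± 0.29, FDR 0.00652). Id2 was at 168.0, 147.5 and 119.0 CPM and at 223.7, 146.5 and 125.3 CPM, against 255.3, 281.8 and 236.4 CPM. It too was lower in every mutant clone (-0.82 ± 0.16, FDR 0.00602; -0.62 ± 0.21, FDR 0.0553), but the Neil2 call held in only 2 of the 6 fits that left out a library. Id1 was at 117.3, 145.3 and 151.1 CPM in Neil1 and at 225.2, 124.0 and 161.3 CPM in Neil2, against 108.4, 131.2 and 115.8 CPM in Control. These ranges overlapped (0.23, FDR 0.250; 0.54 ± 0.21, FDR 0.0796), and the Neil2 call held in 1 of those 6 fits (0.28 and FDR 0.169 without Neil2 #1). Id4 was at 4.84, 2.23 and 2.88 CPM in Neil2, below all Control clones at 9.51, 8.52 and 7.09 CPM (-1.32 ± 0.31, FDR 0.0145). In Neil1 it was at 5.02, 3.61 and 9.74 CPM (-0.45, FDR 0.344), and without #11 it was called lower (-0.95, FDR 0.0215).

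After RA neither inhibitory SMAD was called in Neil1 or Neil2 cells, and Smad6 was called higher in the libraries labelled Apex1. Smad6 was at 17.7, 15.8 and 16.1 CPM in Neil1 and at 18.6, 18.01 and 26.0 CPM in Neil2, against 16.7, 21.3 and 22.8 CPM in Control, with intervals of the log2 difference from -0.69 to 0.12 and from -0.38 to 0.51. Smad7 was at 64.7, 63.5 and 69.9 CPM in Neil1, above all Control clones at 44.3, 53.6 and 52.5 CPM, with a difference of 0.41 (FDR 0.0429) that lay under the fold limit. In Neil2 it was at 45.7, 77.9 and 71.4 CPM (0.39, FDR 0.157). In the libraries labelled Apex1 Smad6 was at 42.4 and 31.1 CPM, above every Control library (0.87 ± 0.25 SE, FDR 0.0829). That was their 1 member called, higher, where 4.97% of 17634 genes were called higher and 2.25% lower. It was called in 2 of the 5 fits that left out a library, and the median over the members was -0.27, beside -0.01 over all genes. Bmp4 at 10.4 and 11.1 CPM and Bmp7 at 31.5 and 31.4 CPM were not called in these libraries (FDR 0.358 and 0.706). Id4 had a larger difference than Smad6, at 3.94 and 3.01 CPM and below every Control library, but was not called (-1.26 ± 0.58, FDR 0.269). Id2 at 168.2 and 145.1 CPM (-0.70, FDR 0.252) and Id3 at 326.3 and 234.6 CPM (-0.65, FDR 0.371) also lay below every Control library without a call. Smad7 was above every Control library but was not called, at 89.9 and 76.5 CPM (0.75, FDR 0.121). Id1 was at 161.2 and 103.3 CPM (0.16, FDR 0.822), Bmp2 at 3.04 and 3.87 CPM (-0.29, FDR 0.814) and Nog at 2.18 and 1.21 CPM (-0.58, FDR 0.680).

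Neural markers were lower and pluripotency markers higher in the mutants after RA. Neural progenitor markers (Pax6, Nes and Hes5) summed to 170.0 to 293.4 CPM in Control EBs + RA, 15.3 to 34.4 CPM in Neil1, 28.3 to 29.4 CPM in Neil2 and 43.8 to 56.0 CPM in the libraries labelled Apex1, with no marker at 0, and 3 of 3 were called lower in each. Pluripotency markers summed to 69.8 to 103.6, 247.7 to 305.9, 159.2 to 465.7 and 470.6 to 603.5 CPM in the same order, with 5 of 5 called higher in Neil1 and in Neil2 and 4 of 5 in the libraries labelled Apex1. Trophoblast markers summed to 107.6 to 159.2 CPM in Control, 201.5 to 642.6 CPM in Neil1, 174.7 to 308.9 CPM in Neil2 and 57.7 to 74.6 CPM in the libraries labelled Apex1, the last below every Control library. Neuron markers (Tubb3, Dcx, Elavl3 and Mtap2) summed to 135.5 to 225.6 CPM in Control, 24.1 to 34.4 CPM in Neil1, 24.4 to 30.4 CPM in Neil2 and 30.3 to 32.0 CPM in the libraries labelled Apex1. Neural crest markers (Pax3, Sox10, Tcfap2b and Foxd3) summed to 20.2 to 48.6, 2.30 to 4.57, 5.21 to 5.99 and 7.75 to 8.43 CPM in that order. Of these 4, 2 were lower in each, and 1 was higher in Neil2. Pax3 was at 6.69 to 20.6 CPM in Control, 0.283 to 1.58 CPM in Neil1 and 1.24 to 1.499 CPM in Neil2, and Tcfap2b at 8.15 to 26.6, 0.0310 to 0.107 and 0 to 0.150 CPM, whereas Foxd3 was at 0.363 to 1.32 CPM in Control and at 1.01 to 2.47 CPM in Neil2. Foxd3 was also at 14.4 to 39.9 CPM in mESC libraries and at 10.4 to 41.7 CPM in EB libraries. It was thus not particular to neural crest in these data. The part of these cell types in the differences of Bmp7, Id2 and Id3 was not tested.

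The stage changes themselves differed between genotypes. From mESCs to EBs, 2 members rose and 1 fell in Neil1 cells, where 13.1% of 15371 genes were called higher and 14.7% lower, and 2 rose and 0 fell in Neil2 cells, where 14.4% of 15554 genes were called higher and 13.1% lower. The median change over the members was -0.19 and 0.06, beside 0.0022 and 0.01 over all genes. Bmp2 and Id4 were those that rose in both genotypes, Bmp2 by 3.30 (FDR 0.000241) and 3.99 (FDR 0.00329), and Id4 by 1.15 (FDR 0.00428) and 1.07 (FDR 0.0141) on the log2 scale. Bmp4, which rose in Control, changed by -0.59 (FDR 0.135) in Neil1 and -0.22 (FDR 0.596) in Neil2 cells. Bmp7 fell in Neil1 by 0.79 (FDR 0.0502), a call held in 1 of the 3 fits that left out a clone. With the clone as a block Smad6 was also called lower in Neil1 (-0.85, FDR 0.0123). In Neil2 the Id4 call was lost without #14 (1.12, FDR 0.196), and the Bmp2 difference was 3.30 without #1 and 4.71 without #11.

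**Figure D4:**
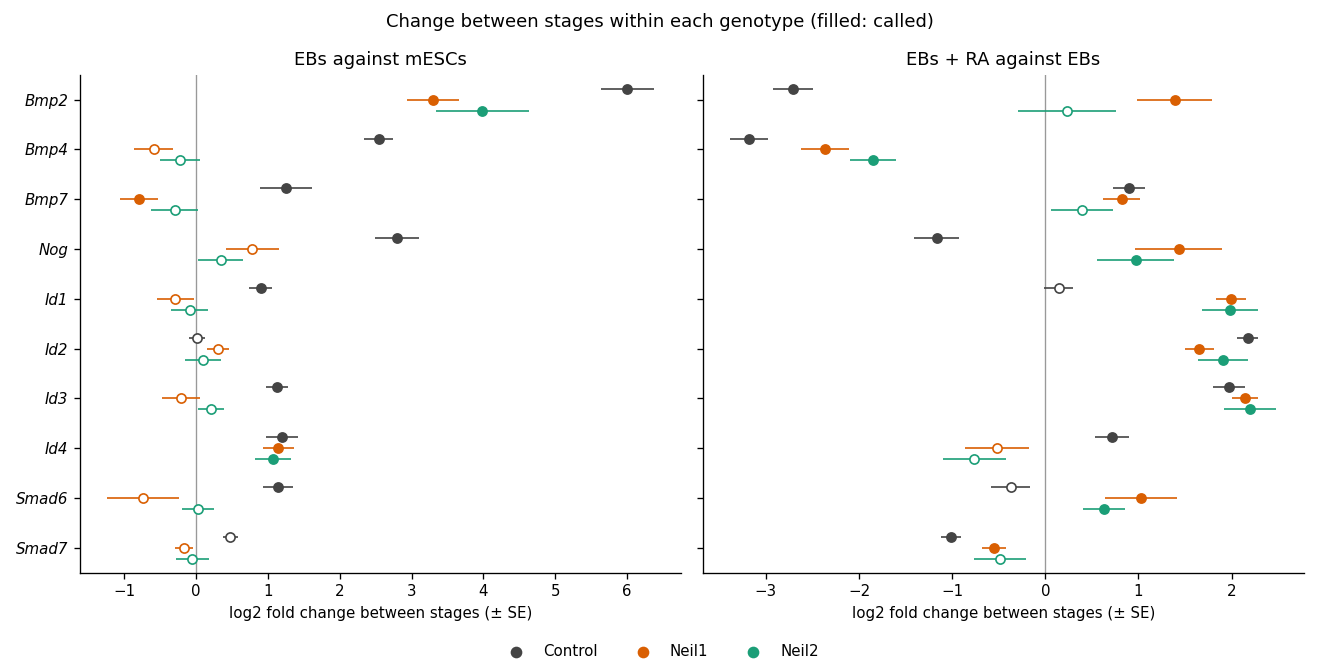
Log2 fold change of each member between stages within Control, Neil1 and Neil2 cells (points, with bars for ± SE), filled where called. Bmp4 rose by 2.54 in Control EBs and not in the mutants, and Id1 rose with RA by 1.99 and 1.98 in the mutants and by 0.14, not called, in Control.

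The difference in the change from mESCs to EBs was tested as an interaction, called at FDR below 0.1 alone. Against Control, the change was lower for 8 members in Neil1 cells and higher for 0, where 6.08% of 16341 genes were called lower and 4.36% higher. In Neil2 cells it was lower for 5 and higher for 0, where 5.67% of 16387 genes were called lower and 4.72% higher. Over the members the median difference was -1.62 in Neil1 and -1.07 in Neil2, beside 0.04 and 0.04 over all genes. The largest differences were those of Bmp4, of -3.14 ± 0.38 SE in Neil1 (FDR 0.000361) and -2.79 ± 0.36 in Neil2 (FDR 0.000712). Nog differed by -2.02 ± 0.48 (FDR 0.0230) and -2.48 ± 0.41 (FDR 0.00344), and Id3 by -1.35 ± 0.34 (FDR 0.0295) and -0.95 ± 0.24 (FDR 0.0352). Id2 and Id4 were not called in either. With the clone as a block the Id1 difference in Neil1 (-1.19, FDR 0.0496) was -1.11 and not called (FDR 0.104).

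From EBs to EBs + RA, Id1 rose in Neil1 and in Neil2 cells and was not called in Control. In Neil1 cells 7 members rose and 2 fell, where 28.2% of 15688 genes were called higher and 25.2% lower. In Neil2 cells 5 rose and 1 fell, where 21.4% of 15876 genes were called higher and 21.0% lower. Over the members the median change was 1.21 and 0.51, beside 0.03 and 0.0016 over all genes. Id1 went from 28.1, 38.6 and 34.9 CPM to 117.3, 145.3 and 151.1 CPM in Neil1 (log2 fold change 1.99 ± 0.16 SE, FDR 6.05e-05) and by 1.98 ± 0.30 (FDR 0.00176) in Neil2, against 0.14 in Control. Smad6 rose by 1.03 (FDR 0.0492) in Neil1, and by 0.66 without #11. Id3 rose by 1.97 in Control, 2.14 in Neil1 and 2.20 in Neil2, so that its fold over this step was alike while its level was not. The interaction of Id1 was 1.89 ± 0.24 (FDR 0.000223) in Neil1 and 1.84 ± 0.36 (FDR 0.00643) in Neil2, whereas that of Id3 was 0.22, with an interval from -0.27 to 0.70, and 0.23, from -0.51 to 0.97. Over this step 6 members changed more upward and 2 more downward in Neil1 than in Control, where 17.3% of 16706 genes were called higher and 14.8% lower. In Neil2 the counts were 5 and 1, where 7.42% of 16757 genes were called higher and 7.98% lower. Here the median difference was 0.68 and 0.77 over the members, beside 0.08 and 0.005 over all genes.

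Bmp2 had the largest interaction with RA, since it fell in Control and not in the mutants. It rose by 1.39 ± 0.40 SE in Neil1 (FDR 0.0183) and changed by 0.24 (FDR 0.745) in Neil2, and the interactions were 4.14 ± 0.49 (FDR 0.00014) and 2.94 ± 0.61 (FDR 0.0083), the latter 3.56 without Neil2 #1. Bmp4 fell within each genotype, by 3.18 in Control, 2.36 in Neil1 and 1.85 in Neil2. Nog differed from Control by 2.64 ± 0.55 (FDR 0.00532) and 2.14 ± 0.48 (FDR 0.0129). Id4, which rose in Control, differed by -1.20 ± 0.41 (FDR 0.0508) and -1.48 ± 0.38 (FDR 0.0272). With the clone as a block Id4 also fell in Neil2 (-0.81, FDR 0.0646), and the Smad7 interaction in Neil2 was called (0.56, FDR 0.0336). The rises of Nog (0.97, FDR 0.0946) and Smad6 (0.63, FDR 0.0567) in Neil2 held in 0 and 1 of the 3 fits that left out a clone, with Nog at 0.64 without #1.

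Before differentiation the members differed little from Control. In Neil1 mESCs 1 of 9 members tested was higher and 0 lower, where 1.03% of 15569 genes were called higher and 0.784% lower. Smad7 was at 108.4, 111.6 and 102.7 CPM, against 73.9, 70.6 and 69.4 CPM in Control (log2 fold change 0.58 ± 0.12 SE, FDR 0.0839). The groups lay apart, but the call was held in 1 of the 6 fits that left out a library, and without #11, whose library stood apart, it was 0.62 (FDR 0.115). In Neil2 mESCs 0 of 9 were higher and 1 lower, where 1.4% of 15615 genes were called higher and 0.429% lower. Id3 was at 35.7, 28.4 and 25.1 CPM, below the 44.2 to 59.2 CPM of Control (-0.79 ± 0.17, FDR 0.0865), a call held in 2 of those 6 fits. Bmp2 did not pass the filter on low counts in these comparisons. In the libraries labelled Apex1 0 of 10 members were called by edgeR, and 0 had an unadjusted p under 0.05, where 1.17% of 16993 genes were called higher and 0.806% lower. DESeq2 called 0 members there too. The median log2 fold change over the members tested was 0.18, 0.16 and -0.0001 in Neil1, Neil2 and these libraries, beside -0.01, -0.02 and -0.02 over all genes. Bmp4, so far below Control in mutant EBs, was at 13.6, 20.8 and 9.14 CPM in Neil1 and at 7.30, 14.2 and 14.1 CPM in Neil2 mESCs, a range that took in that of Control.

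Neil1 and Neil2 cells were also compared with each other. With the filter on low counts no gene was called by edgeR, with 0.0% of 15384 genes in mESCs, of 15294 in EBs and of 15884 in EBs + RA, although 915, 735 and 1608 genes had an unadjusted p under 0.05. DESeq2 called 3, 1 and 111 genes, and edgeR without the filter called 4, 1 and 0. Of the members, Id4 in EBs (0.63, interval 0.15 to 1.12, FDR 0.773) and Bmp2 in EBs + RA (0.92, interval 0.015 to 1.82, FDR 0.486) had an unadjusted p under 0.05. For Bmp4 the interval of the difference ran from -0.55 to 0.40 in EBs and from -1.23 to 0.11 in EBs + RA. For Id3 it ran from -0.53 to 0.24 and from -0.76 to 0.43, so that differences within these bounds cannot be told apart from none.

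A list of 46 further BMP pathway genes was read beside the members. In Control, 17 of 37 tested rose and 4 fell from mESCs to EBs, where 18.5% of all genes tested were called higher and 20.2% lower. Among those that rose were the homeobox targets Msx1 (log2 fold change 6.33) and Msx2 (3.75), the pseudoreceptor Bambi (1.81) and the signal transducer Smad1 (1.42). With RA 23 of 40 rose and 6 fell, where 23.3% of all genes tested were called higher and 20.7% lower. Among these changes were the rises of the receptor Bmpr1b (2.35) and Smad9 (2.65) and the fall of the secreted antagonist Cer1 (-7.63). In mESCs 0 of 33 differed from Control in Neil1 and 0 of 32 in Neil2. Over all genes tested, 1.03% were called higher and 0.784% lower in Neil1, and 1.4% higher and 0.429% lower in Neil2.

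In EBs 12 of 37 were lower and 2 higher in Neil1, and 13 of 36 were lower and 1 higher in Neil2. Over all genes tested, 13.1% were called lower and 10.4% higher in Neil1, and 7.69% lower and 8.65% higher in Neil2. The ligand Bmp5 had 58 to 94 raw counts in Control EBs, 0 to 1 in Neil1 and 0 in Neil2, and Gdf6, another ligand, differed by -1.31 and -1.58. Msx1 was at 65.2 to 122.8 CPM in Control EBs, 2.53 to 4.00 CPM in Neil1 and 2.55 to 3.83 CPM in Neil2 (log2 fold change -4.94 ± 0.28 SE, FDR 1.43e-05; -4.85 ± 0.28, FDR 6.68e-05). Msx2 was at 62.1 to 85.1 CPM, 5.07 to 9.11 CPM and 7.66 to 9.32 CPM. These genes thus stood further below Control than any member. Bambi, whose product is a pseudoreceptor without a kinase, was at 32.2 to 52.9 CPM, 6.89 to 10.2 CPM and 9.16 to 11.4 CPM (-2.35 ± 0.21, FDR 5.28e-05; -2.08 ± 0.21, FDR 0.000732). Of the components that carry the signal, Smad1 was lower by 0.97 and 1.15, and the co-receptor gene Eng was higher by 0.85 and 0.87, on the log2 scale. The antagonist genes Nbl1 (-1.74 and -1.22) and Bmper (-0.85 and -1.95) and the targets Hey1 (-1.06 and -0.83) and Atoh8 (-1.72 and -3.12) were lower too. In the libraries labelled Apex1, 8 of 38 were lower and 1 higher, where 4.77% of all genes tested were called lower and 4.12% higher. Msx1 was at -3.22 and Msx2 at -1.90 in these libraries.

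**Figure D5:**
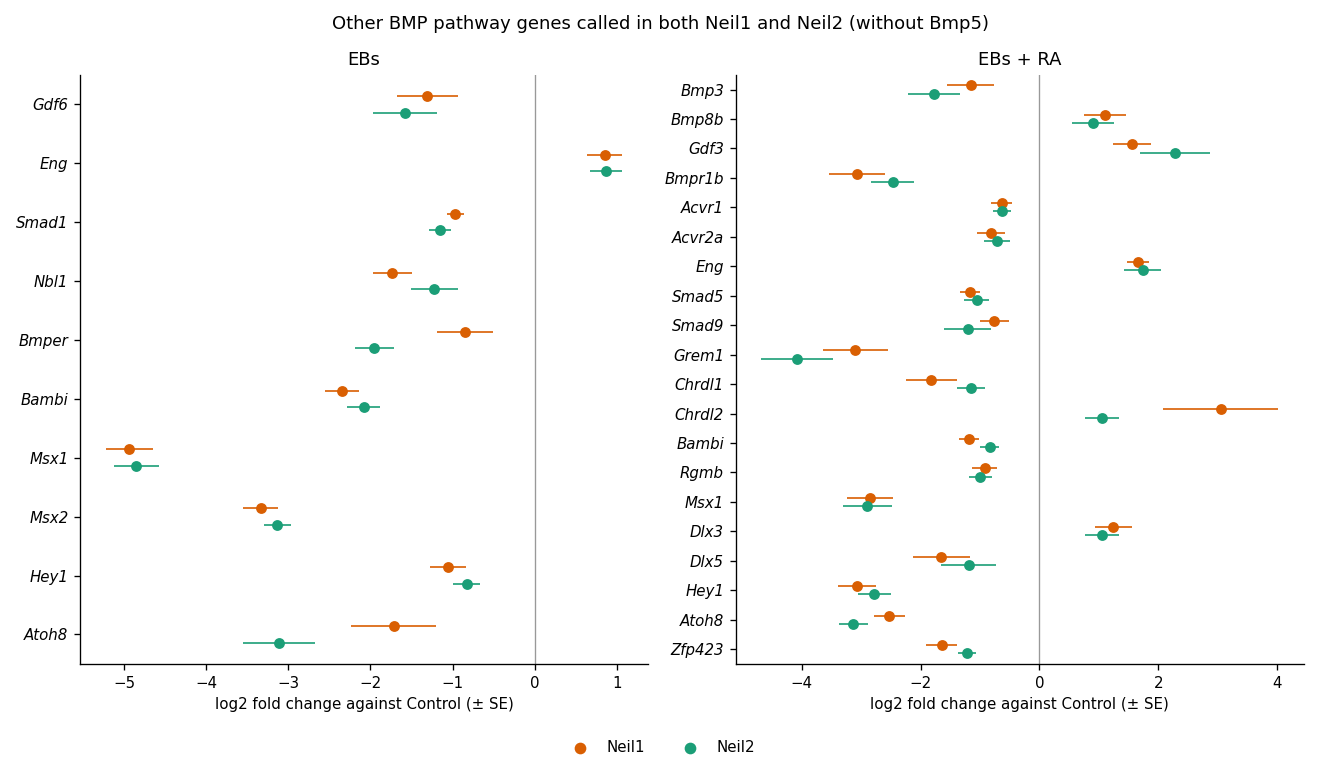
Log2 fold change against Control (points, with bars for ± SE) of the pathway genes outside the members that were called in both Neil1 and Neil2 cells, in EBs and EBs + RA, without Bmp5. Msx1 lay furthest left in EBs, at -4.94 and -4.85, and Eng lay right of 0 at both stages.

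After RA 18 of 39 pathway genes were lower and 7 higher in Neil1, and 18 of 39 were lower and 5 higher in Neil2. Over all genes tested, 19.9% were called lower and 21.2% higher in Neil1, and 16.6% lower and 18.3% higher in Neil2. Among receptors Bmpr1b was lower by 3.07 ± 0.47 SE (FDR 0.00229) and by 2.47 ± 0.36 (FDR 0.00204) on the log2 scale, whereas Eng was higher by 1.65 and 1.74. Smad5 was lower by 1.16 and 1.06 and Smad9 by 0.76 and 1.21. The target Hey1 was at 22.6 to 25.3 CPM in Control, 1.49 to 3.64 CPM in Neil1 and 2.07 to 4.54 CPM in Neil2 (-3.07 ± 0.32, FDR 0.000453; -2.78 ± 0.28, FDR 0.000522). Msx1 (-2.85 and -2.89) and Atoh8 (-2.53 and -3.13) were also lower, but Msx2 was at 27.8 to 30.5 CPM in Control, 23.0 to 29.8 CPM in Neil1 and 16.8 to 27.3 CPM in Neil2, and was not called. Grem1, a secreted antagonist, had 15 to 42 raw counts in Control, 3 to 4 in Neil1 and 1 to 2 in Neil2. Gdf3, a ligand expressed in pluripotent cells, was higher (1.55 and 2.28). The ligand Bmp8b, the secreted antagonist Chrdl2 and the target Dlx3 were also called higher in both Neil1 and Neil2. Called lower in both were also Bmp3, Bmp5, Acvr1, Acvr2a, Chrdl1, Bambi, Rgmb, Dlx5 and Zfp423. In the libraries labelled Apex1 1 of 40 was lower and 3 higher, where 2.25% of all genes tested were called lower and 4.97% higher. In their mESCs 0 of 38 were lower and 1 higher, where 0.806% were called lower and 1.17% higher.

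Copy number was read from the neighbours of each member, as the median log2 difference from Control over expressed genes within 5 Mb on each side. Over all mutant libraries and members this median ran from -0.42 to 0.25. Its lowest value was around Smad6 on chromosome 9 in Neil1 #11, with -0.30, -0.42 and -0.33 in mESCs, EBs and EBs + RA, where the whole chromosome was at -0.26, -0.29 and -0.33. In its EBs Smad6 itself was at 3.17 CPM, against 20.0 to 33.6 CPM in Control, and the Smad6 call in Neil1 EBs was held without that clone. In mutant EBs the window medians were from -0.09 to 0.17 around Bmp4, from -0.08 to 0.04 around Id1 and from -0.01 to 0.14 around Id3. In the libraries labelled Apex1 the whole of chromosome 12, which holds Id2, was at 0.215 and 0.17 in mESCs. It was at 0.29 and 0.32 in their EBs and at 0.22 and 0.28 in their EBs + RA. The window around Id2 in these libraries ran from -0.16 to 0.16.

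The genes whose pattern was most like that of each member were taken by Pearson r of log2 CPM over 30 samples among 11219 genes, as a description, since the samples share stage and genotype. For Bmp2 they were Flt1 (r = 0.951), 1300014I06Rik (0.945) and Sox17 (0.938), and for Bmp4 they were Nrp2 (0.895), Ptgs1 (0.892) and Abcg2 (0.875). For Bmp7 they were Arhgef40 (0.923), Igfbp4 (0.901) and C530008M17Rik (0.896), and for Nog Gorasp2 (0.896), Specc1 (0.873) and Dsp (0.866). Id2 went with Crabp2 (0.966), Meis1 (0.957) and Sdk2 (0.952), and Id3 with Dchs1 (0.972), Zfp113 (0.952) and Fzd1 (0.948). Id1 went with Zfp202 (0.906), Dusp5 (0.904) and Lpp (0.898), and Id4 with Lgr4 (0.857), Tmeff1 (0.810) and Snx24 (0.800). Smad6 had the loosest match, with Emp3 (0.785), Dzip1l (0.779) and Dok4 (0.771), and Smad7 went with Cops7a (0.897), Slc30a2 (0.869) and 1110021L09Rik (0.862). No member was among the 3 nearest genes of another.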

How the data were processed

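Gene expression was measured by sequencing of polyA RNA with an unstranded kit (TruSeq RNA v2) on an Illumina sequencer. The deposited values are raw read counts per gene in each of 33 libraries, made by the authors by alignment to NCBIM37 (mm9) and counting over exons, and the submitters' processing notes name TopHat2 2.0.9, Bowtie2 2.1.0, HTSeq 0.5.4 and DESeq2 1.6.3. Lines that name no gene, 21.8% to 30.4% of the reads of a library, were left out. Levels are CPM (counts scaled to the library size) after TMM scaling. Scaling by library totals instead moved mean levels by 0.917 to 1.108 times.

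Each of 22 comparisons was fitted over all genes that passed filterByExpr, with edgeR 4.0.16 in R 4.3.3 (robust quasi-likelihood test, TMM), without a replicate block. A gene was called where its FDR was under 0.1 and its log2 fold change exceeded 0.5 in size, and differences of stage changes at that FDR alone. The Apex1 duplicates were summed to 1 sample. Log2 CPM for likeness used a prior count of 2. Figures and tables were made with Python 3.11.15, and the fits were tested on simulated data. The alternatives were an FDR below 0.05, DESeq2 1.42.0, other scalings, no filter, a joint fit, a replicate block, and each library left out. For stage changes and their differences, each clone was left out at both stages. All 10 members were read in every comparison, in the text or in the plots. Genes of the pathway list are named where called against Control in both Neil1 and Neil2. Of those called in the Control stage changes only some are named. The members, the 46 pathway genes and the marker lists were chosen with earlier results of these data known. Of the neural progenitor list, Sox1 was not analysed here, and Mtap2 stood for Map2. Endothelium, neuron and neural crest marker lists were also read, and 1 further marker list is not reported here.

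The same clones, numbered in the labels, were used at each stage, so that for stage comparisons a replicate block pairs libraries by clone; the main tests are unpaired, and blocked values stand beside results that they change. As a check, libraries with the same number were correlated over genes after their group mean was subtracted: r was 0.130 to 0.470 between EBs and EBs + RA, and -0.492 to 0.187 between mESCs and EBs. Between genotypes r passed 0.1 for all 3 numbers only in Neil1 against Control EBs + RA (0.257, 0.310 and 0.215), where the block changed no member call. Replicates of a group differed beyond counting noise in every pair, and p-values measure the spread between clones.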

Additional observations from a re-analysis of the deposited data

Results flagged for a closer look

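In 27 cases the change of a member between stages differed between a mutant and Control by the test of the difference itself. All values here are differences of log2 fold changes (mutant minus Control). Groups of 3 were not tested for single deviating libraries.

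From mESCs to EBs in Neil1 cells, the differences were -2.71 for Bmp2, -3.14 for Bmp4, -2.04 for Bmp7 and -2.02 for Nog. They were -1.19 for Id1, -1.35 for Id3, -1.88 for Smad6 and -0.64 for Smad7. Of these, Bmp2, Bmp4 and Smad7 were called in all 6 fits that left out a clone at both stages. Nog was called in 5, Id3 in 4, Bmp7 in 3, Id1 in 2 and Smad6 in 1 of the 6. Without Control #4 5 of the 8 calls were lost, with Nog at -2.02 (FDR 0.114) and Id3 at -1.22 (FDR 0.149).

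From mESCs to EBs in Neil2 cells, the differences were -2.79 for Bmp4, -2.48 for Nog, -1.01 for Id1, -0.95 for Id3 and -1.14 for Smad6. Bmp4 and Nog were called in all 6 such fits, Id3 in 4, Smad6 in 3 and Id1 in 1. Id3 was lost without Control #1 (-0.89, FDR 0.141) and without Control #4 (-0.78, FDR 0.214).

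From EBs to EBs + RA in Neil1 cells, the differences were 4.14 for Bmp2, 0.86 for Bmp4, 2.64 for Nog and 1.89 for Id1. They were -0.48 for Id2, -1.20 for Id4, 1.45 for Smad6 and 0.51 for Smad7. Bmp2, Nog and Id1 were called in all 6 fits, Smad6 and Smad7 in 4, and Bmp4, Id2 and Id4 in 2.

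From EBs to EBs + RA in Neil2 cells, the differences were 2.94 for Bmp2, 1.33 for Bmp4, 2.14 for Nog and 1.84 for Id1. They were -1.48 for Id4 and 1.01 for Smad6. Bmp2, Bmp4, Nog and Id1 were called in all 6 fits, and Id4 and Smad6 in 2. The level of Id1 in EBs + RA did not stand below Control in either mutant, and that of Id3 did, although the difference of its change over this step was 0.22 in Neil1 and 0.23 in Neil2 cells and was not called.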

How the results depend on the processing

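No member difference that was called changed its sign under any alternative run. Of the log2 fold changes of members under alternatives that kept all libraries, 1430 kept their call or lack of it, 34 lost a call and 25 gained one. With a library left out, or a clone in stage comparisons, 89 lost a call and 18 gained one. A further 14 that were not called changed sign by more than their SE. In Neil1 mESCs the 1 member called became 0 at an FDR below 0.05, 3 with DESeq2, 0 with library totals alone, 2 with no filter, 2 in the joint fit and 0 with the replicate block. In Neil2 mESCs 1 became 0 at an FDR below 0.05 and 0 in the joint fit. In the EBs + RA labelled Apex1, 1 became 0 at an FDR below 0.05, 2 with no filter and 6 with the duplicates as 2 samples. For the change from EBs to EBs + RA in Neil1 against Control, 8 became 5 at an FDR below 0.05. The cause was not tested.

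With a library left out, the count of members called against Control in Neil1 cells was 0 to 2 in mESCs (1 with all), 8 in EBs and 5 to 6 in EBs + RA. In Neil2 cells it was 0 to 1 (1), 6 to 8 (7) and 4 to 6 (6). In the libraries labelled Apex1 it was 0, 4 to 5 (5) and 0 to 2 (1). In the stage changes and their differences a clone was left out at both stages instead. For the stage changes from mESCs to EBs and on to EBs + RA the count was 8 and 7 to 9 (8) in Control, 2 to 5 (3) and 8 to 10 (9) in Neil1, and 1 to 3 (2) and 4 to 8 (6) in Neil2. For the differences of these changes it was 3 to 7 (8) and 3 to 8 (8) in Neil1, and 2 to 7 (5) and 4 to 7 (6) in Neil2. Between Neil1 and Neil2, with a library left out, it was 0.

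With the replicate block, where numbers did not pair the samples, Smad7 in Neil1 mESCs was at 0.58 (FDR 0.239) and Id1 in Neil2 EBs + RA at 0.50 (FDR 0.119), neither called. Beside these and the blocked values given with the stage changes, the block changed no other call of a member. Of 120 mean levels, 24 moved by more than their SD with library totals alone. Bmp2 in mESCs rested on 6 to 26 raw counts per library, which limits what could be seen there.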
